A study of Mus musculus with 9 samples.

Results

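The 10 genes described here make the proteins that load peptides onto major histocompatibility complex (MHC) class I molecules and carry them to the cell surface. They were taken by symbol from the deposited gene table of the series. All 10 were found among its 22701 genes, and all 10 had a mean of at least 10 normalised reads over the 9 libraries, as did 13845 genes in all. Membership followed a list of symbols, which was set with earlier results of these data known.

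Livers of 9 mice aged 5 weeks were sequenced as ribosome-depleted total RNA and the labels list the strains C57BL/6 and 129svPas. There were 4 groups, namely WT (3 livers), HP1a-/- (2 livers, called HP1a_KO), HP1a-/- with HP1bliver-/- (1 liver, HP1ab_KO) and HP1a-/- with HP1gliver-/- (3 livers, HP1ag_KO). All 6 mutant livers thus carried the HP1a-/- label, and the second HP1 gene is labelled as deleted in the liver only. The sources used here name neither the Cre driver of that deletion nor the sex or H2 haplotype of any mouse. HP1 proteins are chromatin proteins that bind methylated histone H3 in heterochromatin, and the series title presents them as tumour suppressors of the mouse liver. The comparisons below ask how class I transcripts differ when 1 or more HP1 genes are deleted.

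Class I molecules pair a polymorphic heavy chain (H2-K1 or H2-D1) with the invariant light chain β2-microglobulin (B2m). Peptides cut by the proteasome, whose catalytic subunits can be replaced by the immunoproteasome subunits Psmb8, Psmb9 and Psmb10, are pumped into the endoplasmic reticulum by the transporter Tap1–Tap2 and loaded with the help of tapasin (Tapbp). Nlrc5 is the transactivator that acts on class I promoters, and interferons raise most genes of the pathway. Hepatocytes are known for low surface class I at rest, while Kupffer cells and sinusoidal endothelial cells of the same organ present antigen readily. Whole liver was measured, so more cells of a type and more RNA per cell cannot be told apart.

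Genes of this pathway lie close together. Of the 10 genes, 7 lie on chromosome 17 between Tapbp and H2-D1 (chr17:33915899-35267499, GRCm38), Psmb10 and Nlrc5 lie on chromosome 8, and B2m lies on chromosome 2. The order on chromosome 17 includes a stretch in which Psmb9, Tap1, Psmb8 and Tap2 follow one another. RefSeq start-site windows (250 bases before to 50 after, build GRCm38.p6) were matched for 8 of the 10 genes, and for Tap2 and Nlrc5 none is shown. The stretches below are shown because they carry the elements for which class I promoters are known and because the later results turn on these genes. Capitals mark a kappaB decamer (the first capitals in H2-K1 and H2-D1), an interferon-type match (TTTCNNTTC in H2-K1 and H2-D1, and in B2m a form with 1 more T that reads on the other strand), the core of a cAMP element (TGACG) or a CCAAT match (CCAAT, or ATTGG where it reads on the other strand). Each was searched on both strands. In GENCODE the H2-K1 and B2m stretches lie in no exon, that of H2-D1 lies in a UTR exon of a longer H2-D1 transcript, and both of Tap1 and Psmb9 lie in a UTR exon of a longer Psmb9 transcript.
H2-K1, chr17:34000348-34000467, minus strand, the 120 bases before its start site: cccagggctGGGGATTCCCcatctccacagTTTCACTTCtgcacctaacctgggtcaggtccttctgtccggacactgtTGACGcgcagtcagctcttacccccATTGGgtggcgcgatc
H2-D1, chr17:35262923-35262952, plus strand: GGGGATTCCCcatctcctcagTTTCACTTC
B2m, chr2:122147537-122147656, plus strand: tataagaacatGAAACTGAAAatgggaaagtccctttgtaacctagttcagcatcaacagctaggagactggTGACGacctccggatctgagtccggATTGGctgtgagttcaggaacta
Tap1 and Psmb9, CCAAT match, chr17:34187331-34187360, plus strand: tttCCAATcagcggctgcgcgcggtgcagg
Tap1 and Psmb9, cAMP element core, chr17:34187456-34187485, plus strand: tgcccagagacaggTGACGacagagggtcc

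H2-K1 and H2-D1 held the same elements in the same spacing. Over the 120 bases shown for H2-K1 and the corresponding 120 bases of H2-D1, 107 bases (89.2%) were identical. The 4 marked elements all stood 60 bases farther from the start site in H2-D1. RefSeq has a second H2-K1 window 14 bases away, so this offset depends on the start site taken, while the spacing between the elements does not. The kappaB decamer was present in 0.107% of 32817 RefSeq windows of 300 bases, and in 2 of the 8 windows of this pathway, H2-K1 and H2-D1. The shorter interferon-type letters were in 7.52% of windows and in the same 2 genes, and the longer form was in 3.43% of windows and in B2m. The cAMP element core was in 20.8% of windows and in 5 of 8 (H2-K1, H2-D1, B2m, Tap1 and Psmb9), and CCAAT was in 37.4% of windows and in 6 of 8, Tapbp being the sixth. The matches of Tap1 and Psmb9 are the same bases read on opposite strands, since their windows overlap. With the likeness of H2-K1 and H2-D1, the 8 windows are thus not independent. The letters TTCNNNGAA (in 8.29% of windows) were found in Psmb8 alone of the 8. A match is a description of letters, not a measured binding site.

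Tap1 and Psmb9 are read in opposite directions from a shared stretch. Their RefSeq start sites are separated by 225 bases, so that their 300-base windows share 275 bases. In GENCODE, the exons of the 2 genes share 212 bases on opposite strands (5.79% of the Psmb9 exon bases). Whether the counting used strand is not stated, so reads from those bases cannot be told apart. The same holds for 24.9% of the Tapbp exon bases (antisense Gm19412), 14.7% of Psmb8 (antisense Gm20496) and 14.1% of Tap2 (antisense Gm15821). Sequence shared with other transcripts was highest in the heavy chains. Of the 50-base windows of the longest coding transcript, 14.3% in H2-D1 and 8.79% in H2-K1 also occurred in other genes, mostly other H2 genes, so their levels are uncertain to that extent. The share was 2.0% in Tapbp, 0.861% in Tap1, 0.737% in Tap2 and 0 in B2m, Psmb8, Psmb9, Psmb10 and Nlrc5.

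Reads in genes numbered 16266423 in HP1a_KO replicate 1 and 26375545 to 36161177 in the other 8 libraries. The smallest number of reads behind any value of the 10 genes was 177 (Psmb9 in HP1a_KO replicate 1), a counting error of 7.52%. Cbx5, which encodes HP1a, had 501 to 813 normalised reads in the 6 mutant livers and 997 to 1542 in WT, and Cbx1 (HP1b, 217) and Cbx3 (HP1g, 326 to 380) were lowest in the livers labelled as lacking them. Signal of all 3 genes thus remained in those livers. Which part of each gene is deleted is not stated, so these gene totals do not check the loss of the protein. None of 6 hepatocyte markers was at 0 in any library. Among the WT livers, replicate 1 stood apart for this pathway. It was the highest WT library for 8 of the 10 genes, and its ratio to the mean of WT replicates 2 and 3 was 1.64 for Tap1, 1.48 for Psmb9, 1.40 for Nlrc5, 1.35 for Psmb10 and 1.31 for Psmb8. The median of that log2 ratio was 0.29 over the 10 genes and -0.01 over 13831 genes. The differences from WT of Tap1, Psmb8, Psmb9, Psmb10 and Nlrc5 are given with each WT replicate left out.

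At the level of the transcript, B2m was far above every other gene of the pathway. Per kilobase of exon, B2m averaged 37444 normalised reads over the 9 livers, H2-K1 9116, H2-D1 4911 and Tapbp 835. The order then ran through Psmb10 (460), Psmb8 (257), Tap2 (163), Tap1 (156), Nlrc5 (99.6) and Psmb9 (98.3). Each gene stood above the next in 9 of 9 livers, except that Tap2 was above Tap1 in 6 of 9 and Nlrc5 above Psmb9 in 5 of 9. The order of those 2 pairs thus changed from liver to liver. Outside those 2 pairs the order was shared by all genotypes. The heavy and light chains thus stood well above the transporter, tapasin, immunoproteasome and Nlrc5 genes. Other genes of peptide trimming and loading, not part of this order, ran from 49.8 (Thop1) to 7857 (Calr) per kilobase. Calr thus stood above H2-D1. Merged exons are longer than the longest coding transcript except in B2m, with 3660 against 1352 bases in Psmb9 and 5476 against 2953 in Tap1. The order among the lower genes thus depends on the length taken. Each gene has the same length in every liver, so the differences of a gene between livers do not.

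**Figure D1:**
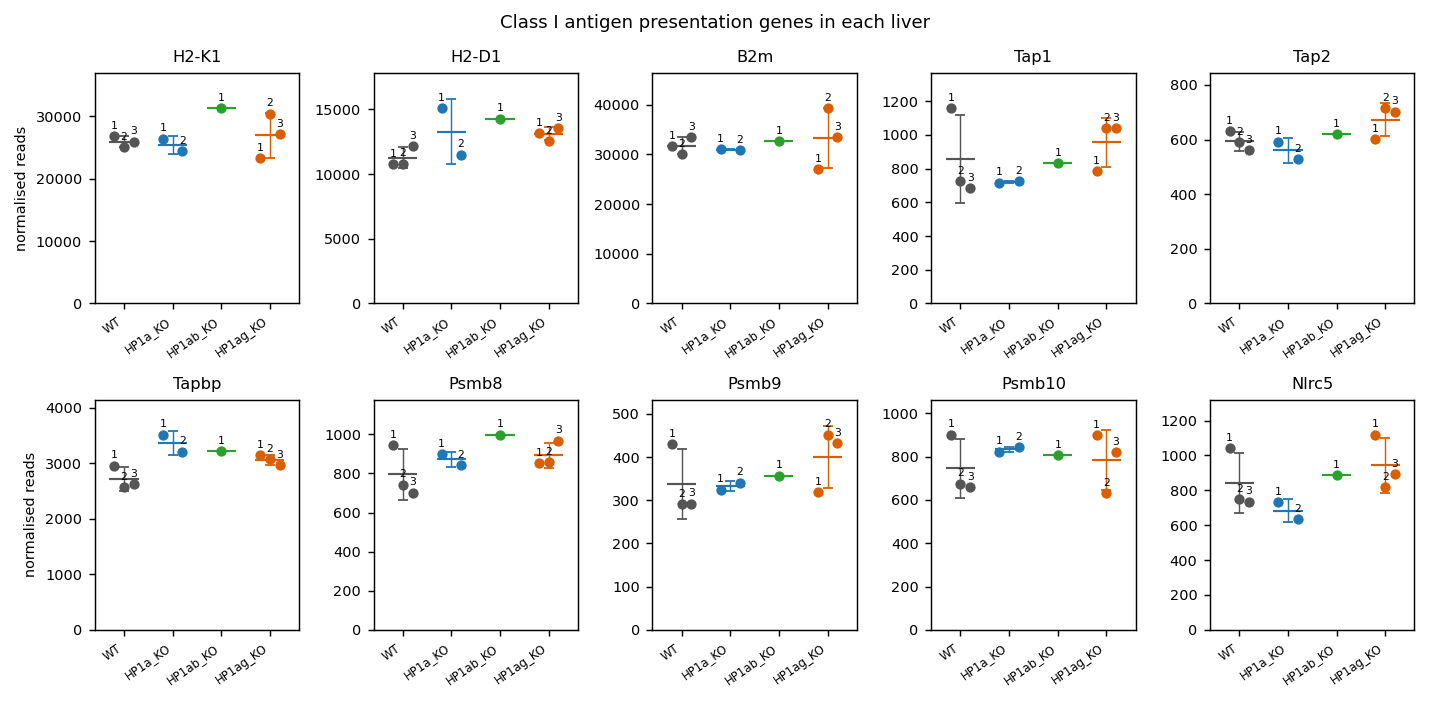
Normalised reads (linear axis from 0) of the 10 class I genes in each liver, by genotype; numbered points are the replicates, the long bar is the group mean and the error bar the SD (n = 3 for WT and HP1ag_KO, n = 2 for HP1a_KO, none for the single HP1ab_KO liver). All 6 mutant livers sit above all 3 WT livers for Tapbp (2965 to 3515 against 2565 to 2958), and WT replicate 1 sits apart from the other WT livers for Tap1 (1157 against 726 and 684).

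No gene of the pathway passed the test in any of the 5 comparisons, and the differences were small. In HP1ag_KO against WT all 10 genes had a higher fitted mean, by 0.05 (H2-K1) to 0.26 (Psmb9) on the log2 scale, with a median of 0.18, where 47.9% of all genes were higher and the median of all genes was -0.01. In HP1a_KO 5 genes were higher and 5 lower, with a median of -0.01 (49.7% of all genes were higher). In the single HP1ab_KO liver all 10 were higher, with a median of 0.12 (49.4% of all genes). For all 6 mutants the median was 0.09, with 10 of 10 higher (48.3% of all genes). The comparisons with WT share the 3 WT livers, so a low or high WT mean moves them together. No gene was called by limma, edgeR or DESeq2 in any comparison at an adjusted p under 0.05. In limma and edgeR that was 0 percent of all 13845 genes too, and DESeq2 called 0.716% of genes in HP1ag_KO, 0.712% in HP1a_KO, 0.0796% in HP1ab_KO and 0.333% in all 6 mutants against WT. At an unadjusted limma p under 0.05 there were 0 of the 10 in HP1ag_KO (7.58% of all genes), 1 in HP1a_KO (10.1%), 0 in HP1ab_KO (3.7%) and 2 for all mutants (6.31%). The labels name single animals and give no litters, so these p-values measure the spread between the livers.

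**Figure D2:**
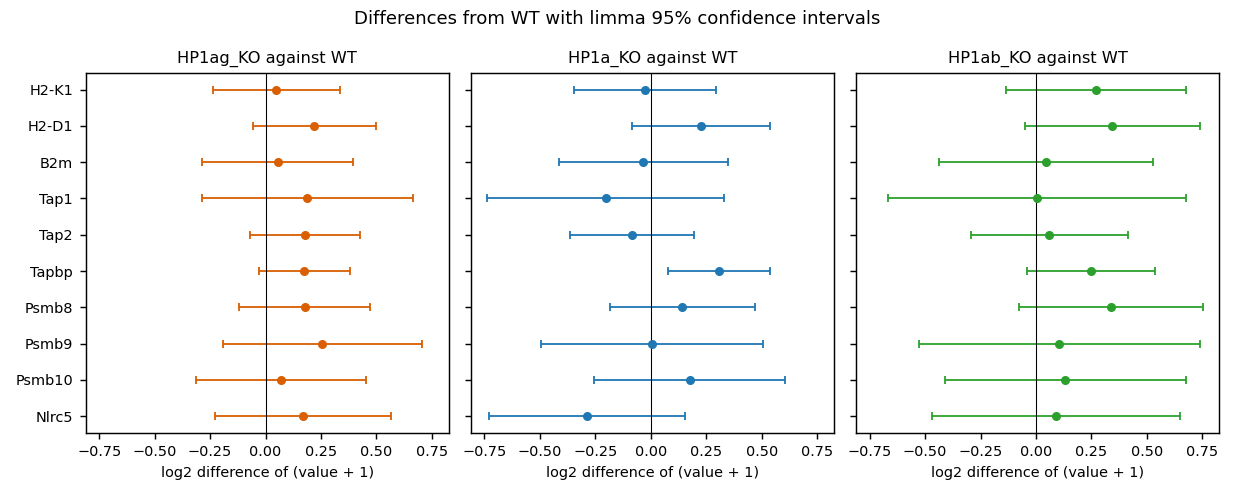
Differences from WT on the log2(normalised reads + 1) scale, 1 panel for each mutant genotype; points are limma estimates, bars their 95% confidence intervals, and the vertical line is no difference. The 10 points of HP1ag_KO lie between 0.05 and 0.26, and the interval of Tapbp in HP1a_KO (0.08 to 0.54) is the only one that leaves out 0 before adjustment.

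Among the heavy and light chains, H2-D1 was somewhat higher in the mutants, while H2-K1 and B2m were near their WT levels. H2-D1 (ENSMUSG00000073411, chr17:35262730-35267499, plus strand) had 10791, 10814 and 12189 normalised reads in WT, 15078 and 11498 in HP1a_KO, 14281 in HP1ab_KO, and 13188, 12571 and 13572 in HP1ag_KO. All 3 HP1ag_KO livers were above all 3 WT livers, and of the 6 mutant livers only HP1a_KO replicate 2 fell inside the WT range. The mean was 13110 ± 505 (SD, n = 3) in HP1ag_KO and 11265 ± 800 (SD, n = 3) in WT, a difference of 0.22 on the log2 scale (limma 95% interval -0.06 to 0.50, adjusted p = 0.709). For all 6 mutants against WT it was 0.24 (0.00 to 0.49, limma adjusted p = 0.786). Only H2-D1 and Tapbp did not overlap between HP1ag_KO and WT, which is 2 of 10 genes, both higher, where 6.46% of all genes were higher and 7.05% lower without overlap.

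H2-K1 (ENSMUSG00000061232, chr17:33996017-34000347, minus strand), the other classical heavy chain, had 26824, 25046 and 25965 normalised reads in WT, 26460 and 24473 in HP1a_KO, 31305 in HP1ab_KO, and 23331, 30474 and 27174 in HP1ag_KO. The HP1ag_KO livers spanned the WT range on both sides, and the HP1ab_KO liver was the highest of the 9. The difference of HP1ag_KO from WT was 0.05 (limma 95% interval -0.24 to 0.34) and turned to -0.04 without HP1ag_KO replicate 2. B2m (ENSMUSG00000060802, chr2:122147686-122153083, plus strand) had a like pattern, with 31631, 30088 and 33499 in WT, 31097 and 30870 in HP1a_KO, 32730 in HP1ab_KO, and 27106, 39278 and 33516 in HP1ag_KO. HP1ag_KO replicate 1 was the lowest and replicate 2 the highest liver of the 9, so the group enclosed all others. The B2m difference of 0.05 (-0.29 to 0.40) became -0.07 without replicate 2.

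Per kilobase, H2-D1 stood at 0.495 ± 0.0383 (SD, n = 3) of the H2-K1 level in WT and at 0.561 ± 0.0873 (n = 3) in HP1ag_KO. The ratio was 0.649 and 0.535 in the HP1a_KO livers and 0.520 in the HP1ab_KO liver. The HP1ag_KO livers (0.644, 0.470 and 0.569) overlapped the WT livers (0.458, 0.492 and 0.535). Which H2 alleles each mouse of the mixed background carried was not tested, and reads of another allele may map differently to the reference.

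Tapasin showed the most regular pattern of the pathway. Tapbp (ENSMUSG00000024308, chr17:33915899-33929292, plus strand) had 2958, 2565 and 2628 normalised reads in WT, 3515 and 3208 in HP1a_KO, 3218 in HP1ab_KO, and 3147, 3074 and 2965 in HP1ag_KO. All 6 mutant livers were above all 3 WT livers, the closest being HP1ag_KO replicate 3 (2965) and WT replicate 1 (2958). Tapbp was the single gene of the 10 with that pattern, which 1.4% of all genes shared in the same direction and 1.74% in the opposite one. For all mutants against WT the fold was 1.17 (limma 95% interval 1.04 to 1.33, adjusted p = 0.693). In HP1a_KO it was 1.24 (1.06 to 1.45), with an adjusted p of 0.452 by limma and 0.286 by DESeq2. HP1ag_KO lay between, at 1.13 (0.980 to 1.30, limma adjusted p = 0.690), and all 3 HP1ag_KO livers were below both HP1a_KO livers. Tapbpl, a tapasin relative that edits peptides, was also higher in both HP1a_KO livers (666 and 616) than in WT (567, 531 and 427), with a log2 difference of 0.34 (limma adjusted p = 0.471). In HP1ag_KO it was 511, 514 and 549, inside the WT range.

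Of the peptide transporter, Tap1 varied more among the WT livers than between the group means, and Tap2 varied less. Tap1 (ENSMUSG00000037321, chr17:34187553-34197225, plus strand) had 1157, 726 and 684 normalised reads in WT, 717 and 725 in HP1a_KO, 834 in HP1ab_KO, and 787, 1040 and 1038 in HP1ag_KO. WT replicate 1 was the highest of all 9 livers, and all 3 HP1ag_KO livers were above WT replicates 2 and 3. The log2 difference of HP1ag_KO from WT was 0.19 (limma 95% interval -0.29 to 0.66, adjusted p = 0.850). It was 0.43 when WT replicate 1 was left out (limma adjusted p = 0.866), 0.0902 without WT replicate 2 and 0.0471 without WT replicate 3. Against HP1a_KO, which had a Tap1 mean of 721 ± 5.54 (SD, n = 2), all 3 HP1ag_KO livers were higher, by 0.39 (-0.14 to 0.92, limma adjusted p = 0.444). Tap2 (ENSMUSG00000024339, chr17:34203527-34216321, plus strand), the partner subunit, had 631, 591 and 561 in WT, 593 and 528 in HP1a_KO, 619 in HP1ab_KO, and 602, 714 and 702 in HP1ag_KO. The same pair of HP1ag_KO livers, replicates 2 and 3, was highest for Tap2, and replicate 1 lay inside the WT range. The ratio of Tap1 to Tap2 per kilobase was 1.27 in WT replicate 1 and 0.836 to 1.02 in the other 8 livers, so that liver was high for Tap1 and not to the same extent for Tap2.

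The 3 immunoproteasome subunits did not move as a block. Psmb8 (ENSMUSG00000024338, chr17:34197721-34201454, plus strand), which replaces Psmb5, had 945, 743 and 702 normalised reads in WT, 901 and 845 in HP1a_KO, 999 in HP1ab_KO, and 855, 859 and 968 in HP1ag_KO. The mutant and WT livers overlapped, with 2 of the 6 mutant livers above all 3 WT livers and all 6 above WT replicates 2 and 3. The log2 difference for all mutants was 0.19 (limma 95% interval -0.06 to 0.45, adjusted p = 0.818). It was 0.32 when WT replicate 1 was left out (limma adjusted p = 0.654), 0.15 without WT replicate 2 and 0.11 without WT replicate 3. Psmb9 (ENSMUSG00000096727, chr17:34181987-34187764, minus strand), which replaces Psmb6, had 430, 290 and 292 in WT, 325 and 341 in HP1a_KO, 357 in HP1ab_KO, and 319, 452 and 432 in HP1ag_KO. Here too the groups overlapped, with 2 of the 6 mutant livers above all 3 WT livers and all 6 above WT replicates 2 and 3. WT replicate 1 was level with the highest HP1ag_KO livers. That liver was set apart on these same values, as for Tap1, and the share of all genes with such patterns was not counted. The Psmb9 difference of HP1ag_KO from WT was 0.26 (-0.19 to 0.70, limma adjusted p = 0.781), or 0.44 with WT replicate 1 left out (limma adjusted p = 0.866). Without WT replicate 2 it was 0.16, and without WT replicate 3 it was 0.16. Psmb10 (ENSMUSG00000031897, chr8:105935735-105938444, minus strand), which replaces Psmb7, had 902, 675 and 660 in WT, 824 and 843 in HP1a_KO, 809 in HP1ab_KO, and 900, 630 and 821 in HP1ag_KO. HP1ag_KO replicate 2, among the highest livers for Tap1 and Psmb9, was the lowest of all 9 for Psmb10. The Psmb10 difference of HP1ag_KO from WT was 0.07 (limma adjusted p = 0.940), and 0.22, 0.00653 and -0.00968 without WT replicates 1, 2 and 3.

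Set against the constitutive subunits they replace, only the Psmb8 ratio, 1 of 3, did not overlap between HP1ag_KO and WT. The share of such ratios over other genes was not computed. Per kilobase, Psmb8 stood at 0.161, 0.140 and 0.133 of Psmb5 in WT and at 0.183, 0.179 and 0.231 in HP1ag_KO. The ratio was 0.155 and 0.138 in HP1a_KO, inside the WT range, and 0.176 in HP1ab_KO. Psmb5 itself had 1557, 1413 and 1400 normalised reads in WT and 1243, 1274 and 1117 in HP1ag_KO, a log2 difference of -0.27 (limma adjusted p = 0.585). Psmb5 was thus lower without overlap, as were 7.05% of all genes, while Psmb8 itself overlapped between HP1ag_KO and WT. Psmb9 stood at 0.0640 ± 0.0190 (SD, n = 3) of Psmb6 in WT and 0.0773 ± 0.0147 (n = 3) in HP1ag_KO, which overlapped. Psmb10 stood at 0.425 ± 0.0956 of Psmb7 in WT and 0.491 ± 0.114 in HP1ag_KO, which overlapped too. The 14 constitutive 20S genes had a median difference of -0.01 in HP1ag_KO, with 5 higher, 9 lower and 0 called by limma, edgeR or DESeq2. By reads per kilobase of merged exons, the constitutive subunit was the more abundant one in every liver. The highest of the 3 ratios was 0.595 (Psmb10 in HP1ag_KO replicate 1), and the size of each ratio depends on the lengths taken.

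**Figure D3:**
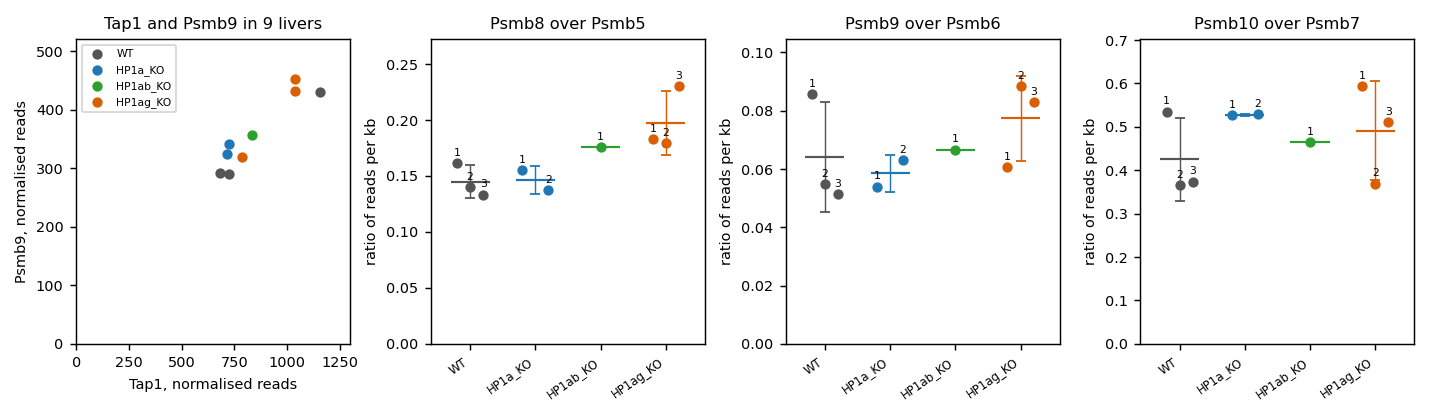
Left, normalised reads of Psmb9 (y axis) against Tap1 (x axis), 1 point for each of 9 livers; right, ratios of each immunoproteasome subunit to the constitutive subunit it replaces, in reads per kilobase, with numbered replicates, group mean and SD as in the plot of all 10 genes. Tap1 and Psmb9 rise together from 684 and 292 to 1157 and 430 within WT alone, and the Psmb8 ratio is 0.179 to 0.231 in HP1ag_KO and 0.133 to 0.161 in WT.

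Nlrc5, the class I transactivator, had a larger fitted difference between HP1ag_KO and HP1a_KO than between either and WT. The gene (ENSMUSG00000074151, chr8:94434356-94527272, plus strand) had 1043, 750 and 735 normalised reads in WT, 732 and 636 in HP1a_KO, 886 in HP1ab_KO, and 1119, 818 and 894 in HP1ag_KO. Both HP1a_KO livers were below all WT livers, and all 3 HP1ag_KO livers were above both HP1a_KO livers. The HP1a_KO difference from WT was -0.29 (limma adjusted p = 0.624), and -0.12, -0.36 and -0.37 without WT replicates 1, 2 and 3. In HP1ag_KO it was 0.17 (limma adjusted p = 0.836), and 0.33, 0.0949 and 0.0800 in the same order. In the comparison of HP1ag_KO with HP1a_KO the fold was 1.37 (limma 95% interval 1.01 to 1.86, adjusted p = 0.297), the smallest p of the 10 genes there. In that comparison 7 genes were higher and 3 lower (48% of all genes were higher), and 3 of the 10 genes were higher without overlap (Tap1, Tap2 and Nlrc5) and 1 lower (Tapbp), where 17.5% of all genes were higher and 19.2% lower. At an unadjusted limma p under 0.05 it was 1 of 10 against 16.2% of all genes, and DESeq2 called none of the 10 and 3.37% of all genes. Against WT, 1 of 10 genes was higher without overlap in HP1a_KO (Tapbp, where 14.7% of genes were) and 1 lower (Nlrc5, where 15.1% were). The liver with the most Nlrc5, HP1ag_KO replicate 1, was the lowest of the 9 for H2-K1 and B2m. Over all 9 livers the Pearson r of Nlrc5 with the other genes of the pathway ran from -0.252 (B2m) to 0.578 (Tap1). The part of Nlrc5 in their levels was not tested. In the single HP1ab_KO liver 4 of 10 genes (H2-K1, H2-D1, Tapbp and Psmb8) were above the WT range and none below, where 22.6% of all genes were above and 24.8% below it.

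Across the 9 livers most pairs of genes were loosely and positively correlated, and the 3 highest pairs by Pearson r joined Tap1, Tap2 and Psmb9. Tap1 and Psmb9, which share the stretch between their start sites, had the highest Pearson correlation of the 45 pairs (r = 0.938), while their Spearman rho of 0.767 was below that of the next 3 pairs, and their ratio per kilobase stayed between 0.557 and 0.703. Tap1 and Tap2 followed by Pearson r (0.802, with a rho of 0.867), then Tap2 and Psmb9 (0.789 and 0.80), and H2-K1 and B2m (0.778 and 0.80). The median Pearson r was 0.44, with 39 of 45 above 0. The lowest was B2m with Psmb10 (-0.631 and -0.567), and H2-K1 with H2-D1 stood at 0.341 and 0.350. These correlations describe 9 livers of 4 genotypes that share library depth and scaling, and the Tap1 and Psmb9 pair shares exon bases as well.

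**Figure D4:**
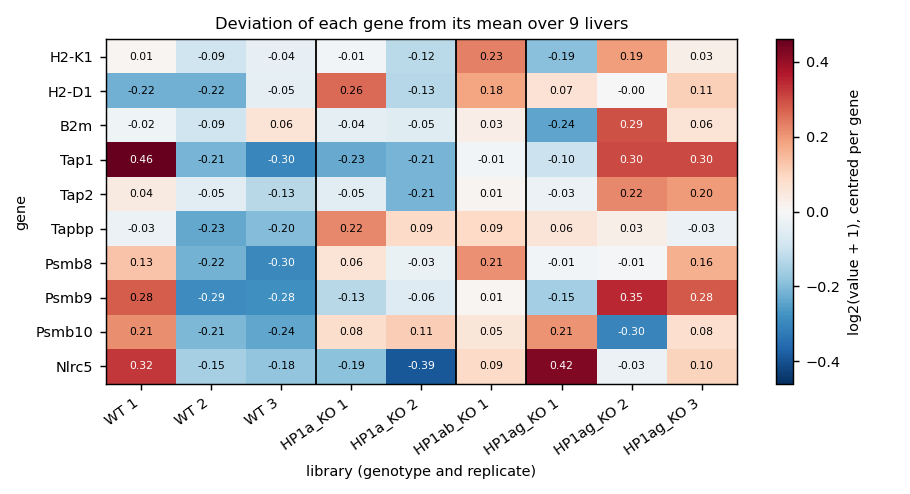
Deviation of each gene (rows) from its own mean over the 9 livers (columns, grouped by genotype with vertical lines), on the log2(normalised reads + 1) scale; red is above and blue below that mean. WT replicate 1 is high for Tap1 (0.46), Nlrc5 (0.32) and Psmb9 (0.28), and HP1ag_KO replicates 2 and 3 share the high Tap1 and Psmb9 values.

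The mean of the 10 centred genes was 0.12, -0.18 and -0.16 in WT, -0.00 and -0.10 in HP1a_KO, 0.09 in HP1ab_KO, and 0.00, 0.10 and 0.13 in HP1ag_KO. WT replicate 1 thus lay among the HP1ag_KO livers. Over 11391 other genes with a mean of at least 50, the 8 whose pattern was most like this mean over the 9 livers were Zfp882 (Pearson r = 0.900), Idnk (0.884), B3galnt1 (0.883), Rps3a2 (0.879), Zfp27 (0.870), Fam173b (0.866), Oas1g (0.866) and Zfp870 (0.863). Only Oas1g among them is an interferon-induced antiviral gene. Zfp870 lies at chr17:32879219-32891642, near Tapbp, and had 187, 116 and 125 normalised reads in WT, 121 and 126 in HP1a_KO, 192 in HP1ab_KO, and 129, 222 and 198 in HP1ag_KO. Rps3a2 had 780, 11.4 and 8.43 in WT, 14.7 and 12.0 in HP1a_KO, 849 in HP1ab_KO, and 13.7, 1639 and 828 in HP1ag_KO. WT replicate 1, the HP1ab_KO liver and HP1ag_KO replicates 2 and 3 were thus the 4 high livers for both genes, and the same 4 livers had the most Tap1. Of the 52 other genes between Tapbp and H2-D1, 6 had an r above 0.5 with the mean of the pathway, as did 714 (6.27%) of the 11391 genes. The part of inherited strain alleles in these patterns was not tested.

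Around the 10 genes, the steps before and after peptide transport were mixed. Of 14 other genes of peptide trimming and loading, 5 were higher and 9 lower in HP1ag_KO, with a median of -0.06 and 0 called by limma, edgeR or DESeq2 (47.9% of all genes were higher). Erap1, the peptidase that trims peptides in the endoplasmic reticulum, had 4222, 4116 and 4126 normalised reads in WT, 4387 and 4233 in HP1a_KO, 4468 in HP1ab_KO, and 4591, 4945 and 4825 in HP1ag_KO. All 6 mutant livers were above all 3 WT livers, as in 1.4% of all genes, with a log2 difference of 0.20 in HP1ag_KO (limma adjusted p = 0.602). Blmh, a cytosolic peptidase, had 1344 to 1475 in WT and 1685 to 1938 in HP1ag_KO (0.34, limma adjusted p = 0.526), and 1371 and 1469 in HP1a_KO, inside the WT range.

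Among 17 measured non-classical and class I-like genes, 8 were higher and 9 lower in HP1ag_KO, and 1, H2-Q1, was called by DESeq2, which called 0.716% of all genes (47.9% of all genes were higher). Limma and edgeR called 0 of the 17, and 2 had an unadjusted limma p under 0.05 (7.58% of all genes). H2-Q1, a class I-like gene of the Q region beside H2-D1 (chr17:35320405-35325099), had 98.7, 221 and 183 normalised reads in WT, 167 and 219 in HP1a_KO, 312 in HP1ab_KO, and 557, 554 and 315 in HP1ag_KO. All 3 HP1ag_KO livers and the HP1ab_KO liver were above all WT and HP1a_KO livers. The log2 difference of HP1ag_KO from WT was 1.53 (limma 95% interval 0.76 to 2.30). The adjusted p was 0.400 by limma, 0.394 by edgeR and 0.00245 by DESeq2. DESeq2 called it against WT with each replicate left out in turn (adjusted p 0.000184 to 0.0401). Against HP1a_KO the difference was 1.26, with an adjusted p of 0.177 by limma and 0.0228 by DESeq2, and the DESeq2 value rose to 0.454 and 0.168 without HP1a_KO replicate 1 or 2 and to 0.0875 and 0.150 without HP1ag_KO replicate 1 or 2. Of its 50-base windows 22.9% also occur in other genes, so reads of related H2 genes and of other H2 alleles may be part of its level, which was not tested.

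H2-T23, which encodes the Qa-1 molecule that shows class I leader peptides to natural killer cells, had 6688, 5995 and 5956 normalised reads in WT and 7189, 8338 and 7391 in HP1ag_KO. These did not overlap, as in 6.46% of all genes in that direction, with a log2 difference of 0.30 (limma adjusted p = 0.584), and HP1a_KO (5985 and 6234) and HP1ab_KO (6610) lay inside the WT range. H2-Q10, a secreted class I molecule made by the liver, went the other way, with 42142, 42333 and 47421 in WT and 37576, 40074 and 36443 in HP1ag_KO (-0.21, limma adjusted p = 0.711). All HP1ag_KO livers were below all WT livers for H2-Q10, as in 7.05% of all genes, while HP1a_KO (43632 and 47115) and HP1ab_KO (45568) were not.

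**Figure D5:**
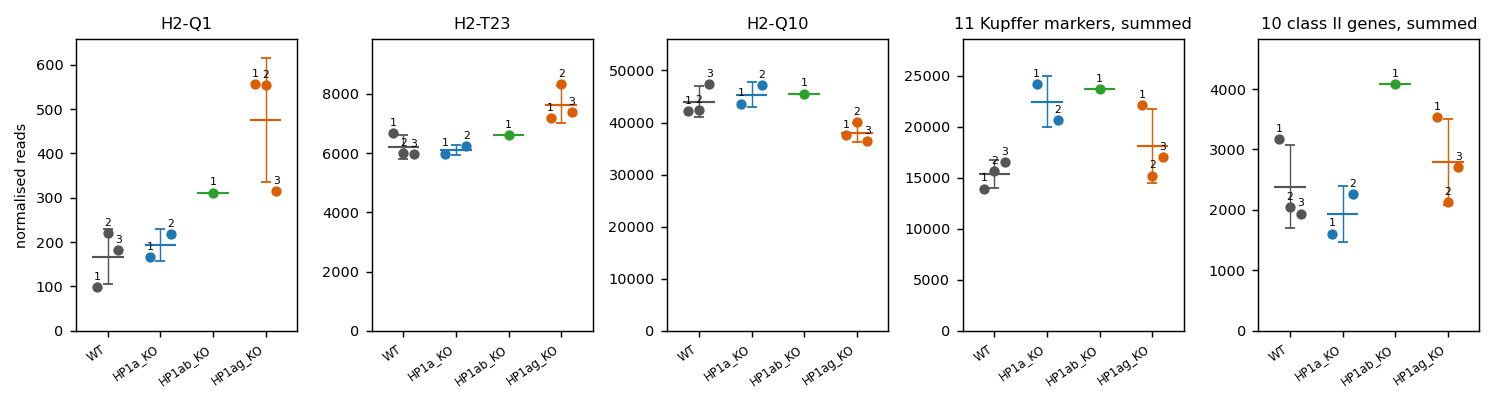
Normalised reads (linear axes from 0) of H2-Q1, H2-T23 and H2-Q10, and of the summed Kupffer cell markers and class II genes, with numbered replicates, group mean and SD (n = 3 for WT and HP1ag_KO, n = 2 for HP1a_KO, 1 liver of HP1ab_KO). H2-Q1 is 315 to 557 in HP1ag_KO and 98.7 to 221 in WT, and the Kupffer sum is 20685 to 24215 in HP1a_KO and 13944 to 16571 in WT.

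Of 22 measured regulators of class I genes, 13 were higher and 9 lower in HP1ag_KO, with a median of 0.03 and 0 called. Stat2, which works with Irf9 in the type I interferon signal, had 1635, 1382 and 1420 normalised reads in WT, 1354 and 1394 in HP1a_KO, 1549 in HP1ab_KO, and 1795, 2131 and 1977 in HP1ag_KO. All HP1ag_KO livers were above all others. The log2 difference was 0.41 against WT (limma adjusted p = 0.459, DESeq2 adjusted p = 0.0749). Against HP1a_KO it was 0.51 (limma adjusted p = 0.141, DESeq2 adjusted p = 0.0111). Of the 22 regulators, Stat2 was the only 1 higher than WT without overlap, where 6.46% of all genes were. Against HP1a_KO 5 of the 22 were higher without overlap (17.5% of all genes), and DESeq2 called 1, Stat2 (3.37% of all genes). Irf1, an activator of Tap1 and Psmb9, had 572, 955 and 504 in WT, 901 and 762 in HP1a_KO, 893 in HP1ab_KO, and 691, 851 and 1190 in HP1ag_KO. The part of these regulators in the class I values was not tested. Ifng, the gene of interferon gamma, had at most 3.67 normalised reads in any liver, and Ciita, the class II counterpart of Nlrc5, had 29.2 to 67.4.

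Of 24 interferon-stimulated genes outside the pathway, all 24 had a higher fitted mean in HP1ag_KO than in WT, with a median of 0.41 (47.9% of all genes were higher). DESeq2 called 2 of them, Mx2 and Gbp3, where it called 0.716% of all genes. Limma and edgeR called 0, and 5 of 24 had an unadjusted limma p under 0.05 (7.58% of all genes). Without WT replicate 1 all 24 stayed higher, with a median of 0.60 and 3 called by DESeq2. Without WT replicate 2 it was 17 higher and 7 lower, with a median of 0.25, and without HP1ag_KO replicate 3 it was 22 higher and 2 lower, with a median of 0.25. DESeq2 called 0 in both of these and without WT replicate 3, and 1 without HP1ag_KO replicate 1. In HP1a_KO 9 were higher and 15 lower (49.7% of all genes were higher), and 13 were higher and 11 lower without WT replicate 1 or without HP1a_KO replicate 1. Their centred mean was 0.30, -0.51 and -0.14 in WT, -0.25 and -0.15 in HP1a_KO, -0.14 in HP1ab_KO, and 0.13, 0.24 and 0.53 in HP1ag_KO, so WT replicate 1 was high here as well. Their part in the differences of the 10 class I genes was not tested.

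Summed levels of markers of other liver cells are given by group, with no test of the sums. Of 11 Kupffer cell markers, all 11 were higher in HP1a_KO than in WT (49.7% of all genes). Without overlap 9 were higher, where 14.7% of all genes were. DESeq2 called 1 of them (0.712% of all genes), and limma and edgeR called 0. In HP1ag_KO all 11 were higher too (47.9% of all genes), with 0 without overlap (6.46% of all genes). The summed level of 11 Kupffer cell markers was 13944 to 16571 in WT, 20685 to 24215 in HP1a_KO, 23721 in HP1ab_KO and 15216 to 22146 in HP1ag_KO, and none of the 11 was at 0 in any library. The 10 class II genes, which mark professional antigen-presenting cells, summed to 1938 to 3171 in WT, 1607 to 2260 in HP1a_KO, 4086 in HP1ab_KO and 2128 to 3541 in HP1ag_KO. The sums were 86.4 to 170 over 11 T and natural killer cell markers, 32.9 to 133 over 4 B cell markers and 284 to 402 over 5 dendritic cell markers across all livers. The 8 neutrophil markers summed to 46.8 to 66.7 in WT, 312 to 494 in HP1a_KO, 168 in HP1ab_KO and 32.5 to 212 in HP1ag_KO, with 4 of the 8 at 0 in some library. The part of these cell types in the class I values was not tested.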

How the data were processed

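Ribosome-depleted RNA of 9 livers was made into stranded libraries, per the labels' protocols. Of tools, the submitters' notes on processing list DESeq2 1.0.19, HTSeq 0.5.4p3, Bowtie2 2.1.0, TopHat2 2.0.10 and CASAVA 1.8.2, with the build mm10 and no role for any. Each deposited value is a size-factor-scaled signal, with the reads of a gene divided by 1 factor for its library. From their steps whole reads were recovered for 100% of values (tolerance 0.1 read). The annotation release, and whether strand was used in counting, were not given in the sources used here. Coordinates come from GENCODE M21, where 98.0% of gene identifiers matched.

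The test was limma 3.58.1 (R 4.3.3, mean trend) on log2(value + 1) over 13845 genes, those averaging at least 10 normalised reads. All 4 groups entered 1 fit with 5 residual degrees of freedom, so the lone HP1ab_KO liver was assumed to vary like the others. Calls were made at a Benjamini-Hochberg adjusted p under 0.05 over all genes tested, within each comparison. The comparison of all mutants weighted the 6 livers equally. Quasi-likelihood tests of edgeR 4.0.16 and Wald tests of DESeq2 1.42.0 were run on the recovered reads. Levels were compared between genes only per kilobase of merged exons. The scripts were tested on simulated data. No replicate was a copy of another, since the chi-square of each pair, divided by its degrees of freedom, was 49.5 to 127.

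The members and gene lists were chosen with earlier results of these data known. Besides the 10 genes, those named were up to 4 per other list by smallest limma p against WT, set defining genes (H2-Q10, Psmb5, Psmb6, Psmb7, Irf1, Ciita and Ifng), the 8 most like genes, the targeted genes and genes whose exons overlap. For 1 gene of the rule the result is not reported here. Alternatives covered the pseudocount, the filter, scaling, the trend, the groups fitted, both count tests and the omission of each replicate in turn, which was added for the interferon-stimulated list after seeing the data.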

Additional observations from a re-analysis of the deposited data

Results flagged for a closer look

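Among the listed genes, 2 marker genes lay on opposite sides of WT in HP1a_KO and HP1ag_KO, each library beyond every WT library on its side. Taken 1 comparison at a time, 14.7% of all genes were higher than WT and 15.1% lower without overlap in HP1a_KO. In HP1ag_KO these shares were 6.46% and 7.05%, and the share of genes with both patterns was not counted. Whether 2 of the listed genes is more than the share over all genes is therefore not known. Siglech, a marker of plasmacytoid dendritic cells, had 21.3, 22.9 and 22.5 normalised reads in WT, 11 and 18.9 in HP1a_KO, and 31.0, 23.6 and 27.4 in HP1ag_KO. HP1ag_KO exceeded HP1a_KO by 0.864 on the log2 scale (limma adjusted p = 0.236). Siglech rests on few reads, since 1 read was worth 1.83 in HP1a_KO replicate 1 and 1.12 in HP1ag_KO replicate 2. The gap between 23.6 in the latter liver and 22.9 in WT is below 1 read. Trf, the transferrin gene of hepatocytes, had 125602, 133391 and 130707 in WT, 199244 and 166240 in HP1a_KO, and 112807, 119982 and 121549 in HP1ag_KO, a difference of -0.624 (limma adjusted p = 0.162), which DESeq2 called. Values of the 10 class I genes showed no such pattern.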

How the results depend on the processing

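No class I gene was called in any of the 77 combinations of comparison and setting, in which the smallest adjusted p was 0.176 (limma, equal totals, HP1ag_KO against HP1a_KO). The fit of only the groups compared has no separate value for all mutants against WT, since that comparison uses every group. Of 780 values of single genes, 736 kept direction and side of the threshold. Against WT the median of the 10 genes was highest without WT replicate 1, and lowest without WT replicate 3 in HP1ag_KO and without WT replicate 2 in the other comparisons. Without WT replicate 1 the median of the 10 genes was 0.229 in HP1ag_KO (range over left-out replicates 0.0923 to 0.229), 0.112 in HP1a_KO (-0.0619 to 0.112), 0.285 in HP1ab_KO (0.0629 to 0.285) and 0.237 for all mutants (0.0514 to 0.237). For HP1ag_KO against HP1a_KO the range was 0.0512 to 0.203.

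Within the 2 pairs of livers with neighbouring animal numbers, an alternative chosen after seeing the data, H2-K1 was at -0.0183, B2m at -0.0749, Tap2 at 0.18, H2-D1 at 0.22, Tapbp at 0.23, Psmb8 at 0.33, Psmb9 at 0.35, Tap1 at 0.36, Psmb10 at 0.36 and Nlrc5 at 0.43 in HP1ag_KO, with no test. In the first pair 8 of 10 genes were higher (median 0.16), in the second 10 of 10 (0.27), and 8 in both. Reversals by scaling or test were small. Psmb9 in HP1a_KO was -0.0012 with TMM, -0.0384 with equal totals, -0.0136 with edgeR and -0.0219 with DESeq2. Tap1 in HP1ab_KO was -0.0215 with edgeR and -0.0343 with DESeq2. For all mutants Tap1 was -0.00425 and Nlrc5 -0.00273 with DESeq2, and H2-D1 against HP1a_KO was 0.0886 with equal totals. The cause was not tested.

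Leaving out 1 replicate reversed some values. In HP1ag_KO against WT the ranges were -0.0366 to 0.22 for Psmb10, -0.0426 to 0.15 for H2-K1 and -0.0732 to 0.19 for B2m. In HP1a_KO they were -0.34 to 0.0343 for Tap1, -0.0923 to 0.19 for Psmb9, -0.0712 to 0.00622 for B2m and -0.0837 to 0.0289 for H2-K1. In HP1ab_KO Tap1 ran from -0.14 to 0.24. For all mutants the ranges were -0.0335 to 0.0735 for B2m, -0.11 to 0.27 for Tap1 and -0.0846 to 0.17 for Nlrc5. Against HP1a_KO they were -0.20 to 0.19 for H2-D1, -0.0256 to 0.0792 for Psmb8, -0.0153 to 0.18 for H2-K1, -0.0398 to 0.23 for B2m and -0.21 to 0.0446 for Psmb10. The labels give no replicate numbers, so no fit with a replicate block was made.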
